A study of Mus musculus with 6 samples.

Results

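Vmn2r65 to Vmn2r72 are 8 consecutively numbered vomeronasal type 2 receptor (V2R) genes of mouse chromosome 7, and they were described here in 6 libraries of RNA bound to phosphorylated ribosomal protein S6. The 8 genes were taken by name from a table of 38561 Ensembl gene IDs, in which 121 V2R genes with a number were found, and all 8 passed the filter on low counts. Vmn2r65 was chosen by its measured levels after pup and control exposure in these same libraries, and the other 7 genes, called the neighbours below, because their numbers follow it. For that reason every value that compares the groups for these 8 genes is given as a description and without a test.

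Male mice of the outbred CD-1 stock gave the vomeronasal organs, the pheromone-sensing organs of the nose, from which the libraries were made. After pup exposure there were 3 libraries, and after a control exposure, which the labels do not describe further, another 3. Ages and the number of animals per library are not given in the labels, so replicates may differ by technical spread alone. S6 becomes phosphorylated in recently active neurons, so RNA pulled down with an antibody to its phosphorylated form is enriched for active cells. No library of unprecipitated RNA was analysed here. In a bulk precipitate, more cells carrying a receptor, more RNA per cell and stronger pull-down from the same cells cannot be told apart.

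V2R receptors are G protein-coupled receptors with a long extracellular domain that binds peptides and proteins. They are made by sensory neurons of the basal layer of the vomeronasal epithelium, which signal through the G protein Gnao1, and a basal neuron typically makes 1 variable V2R together with broadly shared family C V2R receptors. Because of that rule, the RNA of a single V2R gene can stand for a small class of neurons. Vmn2r65 has been named in published work on male responses to pups. No ligand is stated here for the 7 neighbours.

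The library totals were 18199476 to 20871266 counts after pup exposure and 10590716 to 11240065 counts after control exposure. The 121 V2R genes held 25072 to 56465 of these counts in pup exposure libraries and 7893 to 20548 in control exposure libraries. Omp, a marker of mature sensory neurons, stood at 782, 664 and 831 CPM after pup exposure and at 922, 906 and 768 CPM after control exposure, where CPM is the count relative to the TMM-adjusted library size, as edgeR's cpm gives it. Of the 5 vomeronasal neuron markers chosen, 4 were matched to a row and all 4 were detected. Their summed level was 970 to 1333 CPM after pup exposure and 1068 to 1133 CPM after control exposure, so these markers of the labelled tissue were present and the groups overlapped. The fifth marker, the transduction channel Trpc2, was not matched under its own ID, but Xntrpc, an annotated readthrough gene that spans Trpc2, has a row that was looked up after the other values were seen. Xntrpc was at 242, 564 and 368 CPM after pup exposure and at 116, 144 and 198 CPM after control exposure, so the groups did not overlap. With it the summed neuron markers were 1454 to 1575 CPM after pup exposure and 1223 to 1276 CPM after control exposure, which did not overlap either.

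In the GENCODE M21 annotation of GRCm38 the 8 genes lie within 819.5 kb, from base 84935565 to base 85755097 of chromosome 7. All 8 are annotated as protein-coding, and 7 of them are on the minus strand. Vmn2r65 (ENSMUSG00000066372) is at the low-coordinate end, at chr7:84935565-84964115, and its nearest neighbour Vmn2r66 (ENSMUSG00000094950) begins 21.2 kb away. Vmn2r71, the only member on the plus strand, overlaps the gene body of Vmn2r70 over 6106 bases, but their annotated exons overlap over 59 bases only and the coding transcript of Vmn2r71 over 0. Whether the counting used strand is not given in the sources used here. The other 15 annotated genes inside the run are all pseudogenes, 9 of them named as V2R pseudogenes. Of the 14 pseudogenes with a row in the table, 3 had a count, and together they had 0, 3 and 1 counts after pup exposure and 0, 2 and 0 counts after control exposure.

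Vmn2r65 is not a close copy of its neighbours. Its coding sequence, of 2535 bases in 6 coding exons, was 71.3% to 72.8% identical to those of the 7 neighbours, whereas the 21 pairs among the neighbours were 88.1% to 95.5% identical. The closest pairs were Vmn2r67 with Vmn2r68 (95.5%), Vmn2r67 with Vmn2r72 (94.4%) and Vmn2r69 with Vmn2r71 (94.1%). In a set of 119 V2R coding sequences, the closest to Vmn2r65 was that of Vmn2r76 at 74.0%, also on chromosome 7. This bears on how far reads can be assigned. Of the 50-base words of the Vmn2r65 coding sequence, 0% were found in a transcript of any other gene. For the neighbours this share ran from 4.83% in Vmn2r66 to 31.4% in Vmn2r67. Over the longest annotated transcript of each gene, the share was 0.30% in Vmn2r65 and 1.66% to 18.8% in the neighbours. In Vmn2r67 and Vmn2r68, 17.4% of coding words were found in the other gene of the pair, so counts of these neighbours are uncertain where the authors' counting could split reads.

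**Figure D1:**
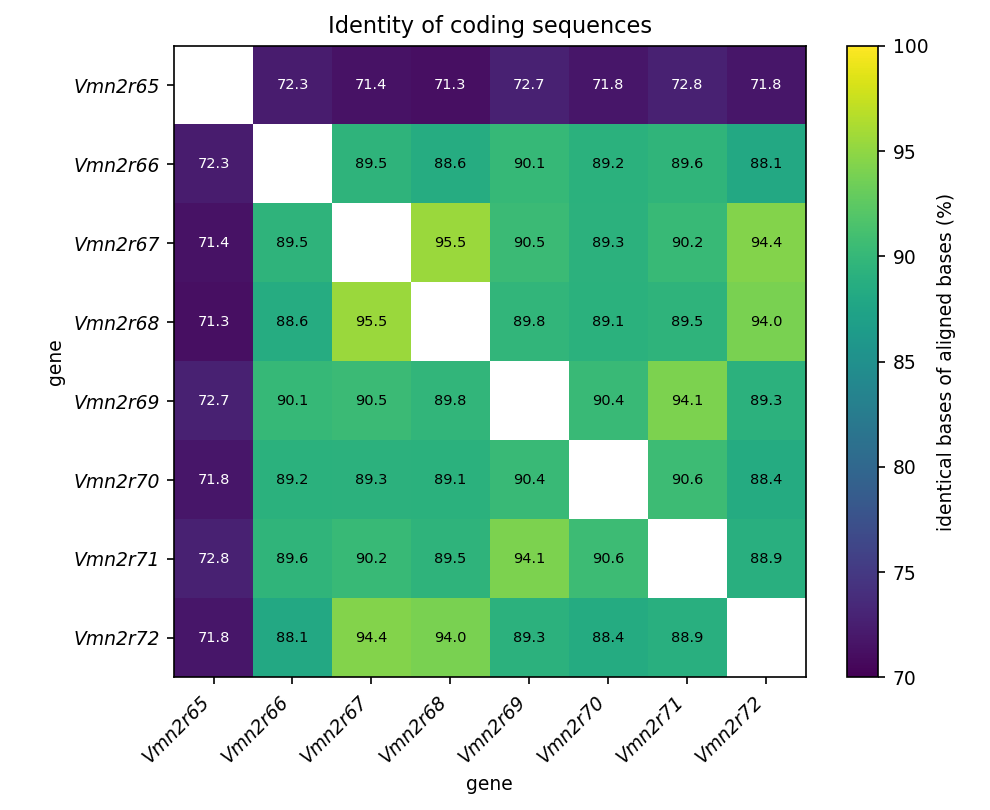
Identity of the annotated coding sequences of the 8 genes, as the percentage of aligned bases that are identical; rows and columns are genes and the diagonal is left empty. The row of Vmn2r65 lies between 71.3% and 72.8%, and all pairs of the other 7 genes lie at or above 88.1%.

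The 300-base RefSeq windows around the start codons were also less alike between Vmn2r65 and the neighbours than among the neighbours. The sequences below are from RefSeq (GRCm38.p6) and are shown because they set the start region of Vmn2r65 beside those of neighbours whose groups overlapped. Each is the stretch before both the RefSeq and the GENCODE start, written 5′ to 3′ on the minus strand. RefSeq places the start of all 8 genes at the ATG codon, and GENCODE places it further upstream. For Vmn2r66, Vmn2r69 and Vmn2r71 nearly all or all of the window before the ATG lies inside the GENCODE gene, so these 3 are not printed. In Vmn2r67, Vmn2r68 and Vmn2r70, capitals mark a 15-base word found in the RefSeq window of every neighbour. In Vmn2r65 they mark the first 10 bases of the 15-base stretch that aligns with the word in an alignment to Vmn2r67, since the rest lies past the GENCODE start. The stretches are chr7:84964116-84964259 for Vmn2r65, chr7:85155999-85156152 for Vmn2r67, chr7:85237784-85237954 for Vmn2r68, chr7:85569193-85569338 for Vmn2r70 and chr7:85755098-85755231 for Vmn2r72. In Vmn2r72 the word also runs past the GENCODE start, and the bases of it that are shown are not in capitals.
Vmn2r65: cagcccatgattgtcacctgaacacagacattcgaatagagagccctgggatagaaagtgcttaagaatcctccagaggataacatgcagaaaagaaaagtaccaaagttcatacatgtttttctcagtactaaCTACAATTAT
Vmn2r67: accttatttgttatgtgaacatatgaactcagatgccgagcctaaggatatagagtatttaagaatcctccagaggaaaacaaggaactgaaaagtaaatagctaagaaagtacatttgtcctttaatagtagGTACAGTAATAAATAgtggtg
Vmn2r68: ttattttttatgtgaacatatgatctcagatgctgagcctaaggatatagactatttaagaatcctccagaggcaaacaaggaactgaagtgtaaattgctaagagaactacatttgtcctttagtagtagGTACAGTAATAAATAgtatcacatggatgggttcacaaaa
Vmn2r70: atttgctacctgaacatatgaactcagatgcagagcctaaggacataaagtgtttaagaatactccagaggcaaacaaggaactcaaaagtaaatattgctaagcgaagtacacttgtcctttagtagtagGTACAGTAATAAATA
Vmn2r72: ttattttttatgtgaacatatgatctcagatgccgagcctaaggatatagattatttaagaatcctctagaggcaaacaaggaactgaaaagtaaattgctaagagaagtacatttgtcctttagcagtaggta

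The word GTACAGTAATAAATA was picked as the longest one found in the windows of all 7 neighbours. Its presence in these 7 was therefore set by the choice. The word began 117 to 121 bases before the RefSeq start in the 7 neighbours. Searched on both strands in 32851 RefSeq start windows of 300 bases, it was found in 8, or 0.0244%: the 7 neighbours and Vmn2r73, the next receptor along the chromosome. It was not found in the Vmn2r65 window, where the aligned stretch CTACAATTATAAAAA, 116 bases before the start, matched it at 11 of 15 bases. Apart from the 7 neighbours and Vmn2r73, no window of any V2R gene held the word, so its absence is not particular to Vmn2r65. Over the whole windows Vmn2r65 was 60.6% to 65.1% identical to the neighbours, against 82.5% to 92.0% for the 21 pairs among the neighbours. A shared word is a description of these letters and says nothing of what binds there.

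Vmn2r65 was the receptor of the run with the large difference between exposures. Its level was 64.3, 152 and 128 CPM after pup exposure, against 4.47, 26.3 and 16.3 CPM after control exposure. The groups did not overlap, with every pup exposure library above the highest control exposure library; this was so in 1 of the 8 receptors, beside 19.8% of all genes tested whose groups did not overlap in either direction. In counts these values rested on 1200, 4305 and 2593 reads after pup exposure and on 57, 293 and 104 reads after control exposure. The means were 115 ± 45.5 CPM after pup exposure and 15.7 ± 10.9 CPM after control exposure (SD, n = 3 each), a ratio of 7.34, and the log2 fold change in edgeR's fit over all genes was 2.88 (SE 0.60). Control exposure replicate 1 was the lowest of the 3 controls and pup exposure replicate 1 the lowest of the 3 pup libraries. Without control exposure replicate 2, the control library with most Vmn2r65, the log2 fold change was 3.52, and without control exposure replicate 1 it was 2.44. Measured per counts of Xntrpc in place of library size it was 1.54. Among 97 tested V2R genes Vmn2r65 had the second highest log2 fold change, while the 7 neighbours had ranks from 10 to 76.

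**Figure D2:**
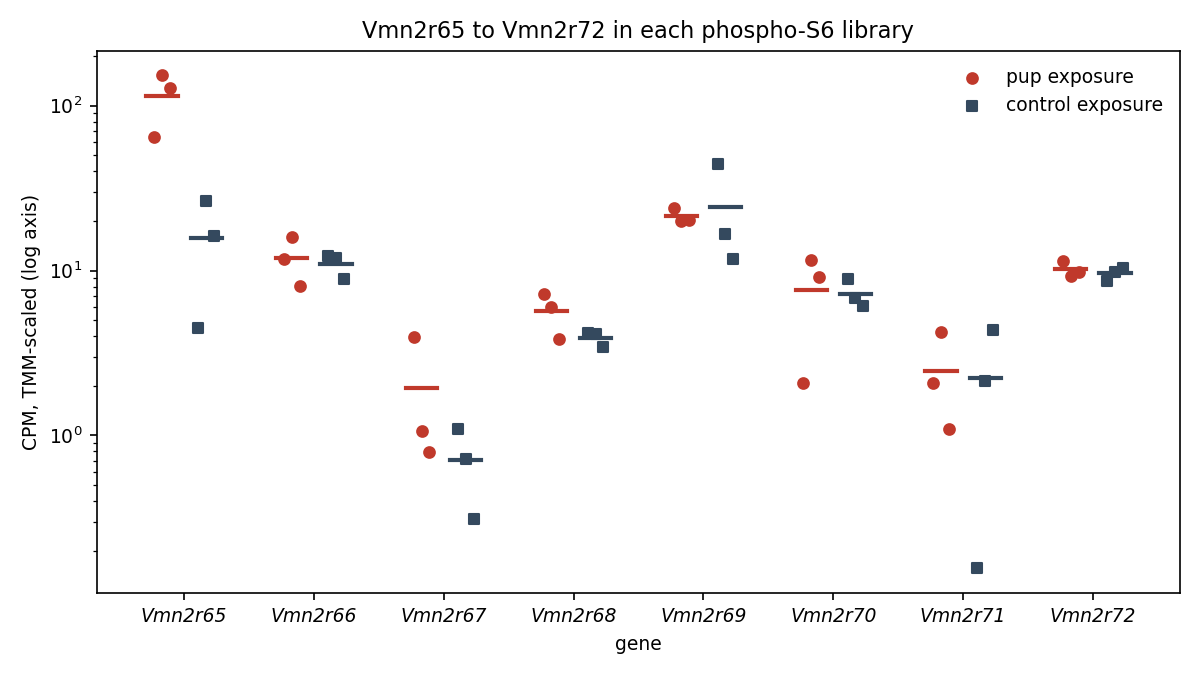
Level of each of the 8 receptors in each library, in TMM-scaled CPM on a log axis; red circles are the 3 pup exposure libraries, dark squares the 3 control exposure libraries, and bars the group means. The groups are apart for Vmn2r65, at 64.3 to 152 CPM after pup exposure and 4.47 to 26.3 CPM after control exposure, and overlap for each of the other 7 genes.

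The summed levels of the 7 neighbours overlapped between the groups. Their summed level was 62.6, 68.0 and 53.2 CPM after pup exposure and 79.2, 52.3 and 45.2 CPM after control exposure. The means were 61.2 ± 7.503 and 58.9 ± 17.9 CPM (SD, n = 3 each) after pup and control exposure, a ratio of 1.04, and the control range enclosed the pup range. Without control exposure replicate 1, the highest of the 3 controls, the ratio was 1.26. The median log2 fold change of the neighbours was 0.11, against 0.030 over all 15498 genes tested.

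Among neighbours, Vmn2r72 was the steadiest. It stood at 11.4, 9.24 and 9.84 CPM after pup exposure and at 8.62, 9.86 and 10.31 CPM after control exposure, with a log2 fold change of 0.084 (SE 0.41). Its values overlapped and lay close together in all 6 libraries. Vmn2r66, the gene next to Vmn2r65, was at 11.8, 15.9 and 8.01 CPM after pup exposure and at 12.3, 11.8 and 8.91 CPM after control exposure, with a log2 fold change of 0.11 (SE 0.44). The nearest gene on the chromosome thus had overlapping groups, and its log2 fold change turned to -0.14 without pup exposure replicate 2.

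Vmn2r69 was the neighbour with most counts and was set apart by 1 library. It was at 24.1, 19.9 and 20.4 CPM after pup exposure and at 44.0, 16.8 and 11.7 CPM after control exposure. Control exposure replicate 1, in which Vmn2r65 was lowest, held the highest value. Its log2 fold change was -0.18 (SE 0.49), and 0.59 without that library. Vmn2r70 was at 2.09, 11.6 and 9.20 CPM after pup exposure and at 8.86, 6.81 and 6.09 CPM after control exposure, so that pup exposure replicate 1 lay below every other library. Its log2 fold change of 0.071 (SE 0.61) ran from -0.37 to 0.51 with single libraries left out.

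Vmn2r67, Vmn2r68 and Vmn2r71 were counted more thinly. Vmn2r68 was at 7.19, 6.02 and 3.86 CPM after pup exposure and at 4.15, 4.12 and 3.44 CPM after control exposure, with a log2 fold change of 0.54 (SE 0.56). Its groups overlapped through pup exposure replicate 3. Vmn2r67 had 74, 30 and 16 counts after pup exposure and 14, 8 and 2 counts after control exposure. Scaled to 3.97, 1.06 and 0.791 CPM after pup exposure and 1.10, 0.717 and 0.313 CPM after control exposure, its groups overlapped. Its log2 fold change was 1.41 (SE 1.06). This estimate, the next after Vmn2r65 in the run, was 0.35 without pup exposure replicate 1, which held most of its counts. Vmn2r71 had 39, 119 and 22 counts after pup exposure and 2, 24 and 28 counts after control exposure, and its groups overlapped, at a log2 fold change of 0.17 (SE 1.04). It was -0.43 without pup exposure replicate 2 and 1.07 without control exposure replicate 3. On log2(CPM + 1), the closest pair by coding sequence, Vmn2r67 and Vmn2r68, had a Pearson r of 0.87 over the 6 libraries. The pair Vmn2r67 and Vmn2r72 had 0.50, and the pair Vmn2r69 and Vmn2r71 had -0.84. All 21 pairs among the neighbours ran from -0.86 to 0.87, with a median of 0.14. The 6 points of each pair share library and depth, and the values are descriptions only.

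**Figure D3:**
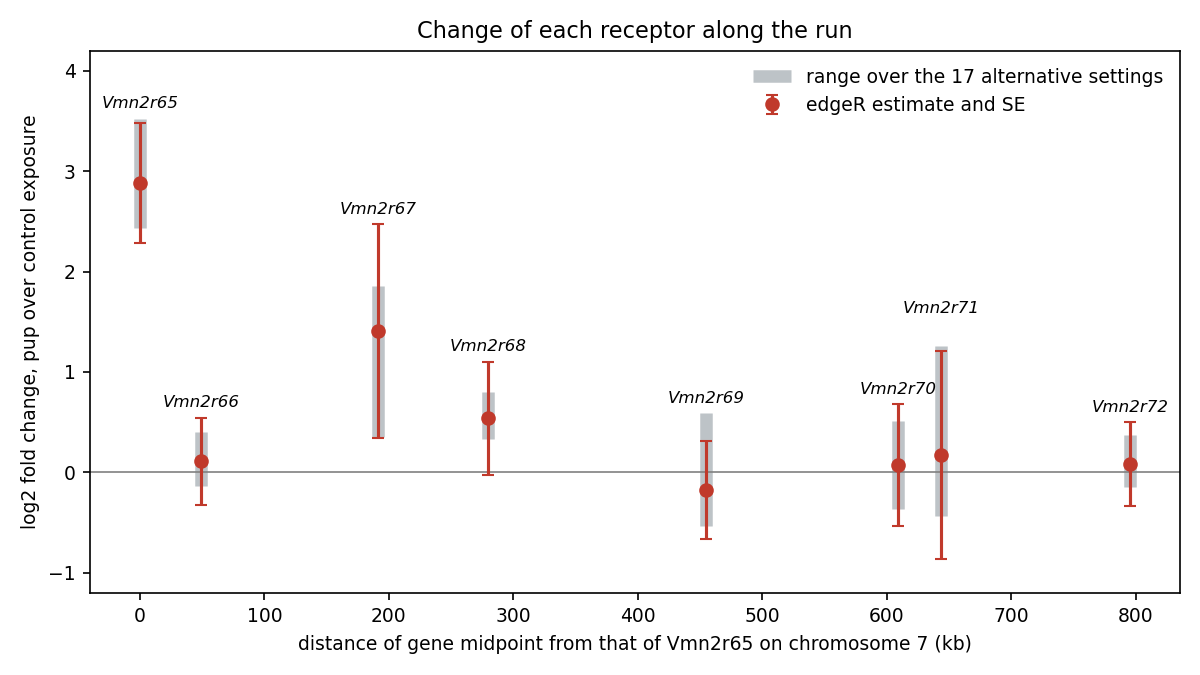
Log2 fold change of pup over control exposure for each receptor against the distance of its midpoint from that of Vmn2r65 on chromosome 7, in kb. Points and whiskers are edgeR's estimate and its SE, and grey bars the range over 17 other settings, without the one per Xntrpc counts: Vmn2r65 ran from 2.44 to 3.52, and the bars of Vmn2r66, Vmn2r69, Vmn2r70, Vmn2r71 and Vmn2r72 cross 0.

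The makeup of the run needs no scaling between libraries. Its difference between exposures restates that of Vmn2r65, whose counts it uses, beside neighbours whose summed levels overlapped. Vmn2r65 held 50.7% of the summed counts of the 8 genes in pup exposure replicate 1 (Wilson 95% interval 48.7% to 52.7%), 69.2% in replicate 2 (68.0% to 70.3%) and 70.7% in replicate 3 (69.2% to 72.1%). After control exposure it held 5.34% in replicate 1 (4.15% to 6.86%), 33.4% in replicate 2 (30.4% to 36.6%) and 26.5% in replicate 3 (22.3% to 31.0%). The shares were 63.5% ± 11.1 after pup exposure and 21.8% ± 14.6 after control exposure (SD, n = 3 each) and did not overlap. The intervals cover at most counting error, and can be too narrow even for that, since reads without molecular identifiers are not independent molecules. The ratio of Vmn2r65 to the 7 neighbours together was 1.03, 2.24 and 2.41 after pup exposure, against 0.0564, 0.503 and 0.360 after control exposure.

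**Figure D4:**
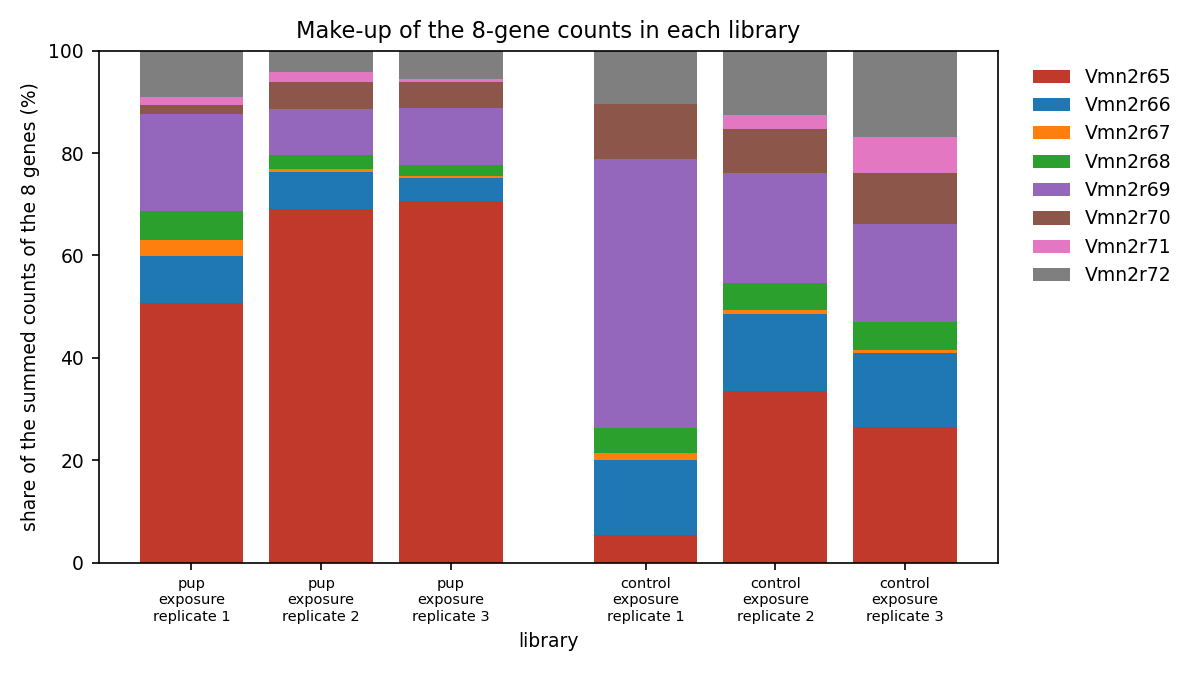
Share of the summed counts of Vmn2r65 to Vmn2r72 taken by each gene, in percent, with 1 bar per library and the pup exposure libraries on the left. Vmn2r65, at the bottom of each bar, takes 50.7% to 70.7% in the pup exposure libraries and 5.34% to 33.4% in the control exposure libraries.

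Against the whole V2R family the 8 genes held 9.44%, 11.02% and 9.17% of V2R counts after pup exposure and 6.17%, 4.26% and 4.98% after control exposure. The neighbours alone held 4.66%, 3.40% and 2.69% of V2R counts after pup exposure, against 5.84%, 2.84% and 3.66% after control exposure. The shares of the neighbours overlapped and those of all 8 genes did not, so the larger share of the run after pup exposure lay in Vmn2r65.

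Levels of different genes were compared per length. Per kilobase of annotated exons, Vmn2r65 was at 11.1 ± 4.38 CPM per kb after pup exposure, and Vmn2r72, the next in order, at 2.14 ± 0.237 CPM per kb (SD, n = 3 each), with ranges that did not meet. Below Vmn2r68, neighbours in the order overlapped, and Vmn2r67 was last at 0.154 ± 0.140 CPM per kb. After control exposure Vmn2r72 at 2.02 ± 0.184, Vmn2r65 at 1.51 ± 1.05 and Vmn2r69 at 1.497 ± 1.08 CPM per kb came first with overlapping ranges, and Vmn2r67 was again last. Annotated exon lengths ran from 3345 to 16132 bases and coding lengths from 2535 to 2574 bases. Per kilobase of coding sequence Vmn2r65 was still the highest after pup exposure, at 45.4 ± 18.0 CPM per kb, followed by Vmn2r69 at 8.42 ± 0.891 CPM per kb, while after control exposure Vmn2r69 came first at 9.47 ± 6.80 and Vmn2r65 followed at 6.18 ± 4.305 CPM per kb.

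Fitted on the whole table, edgeR's quasi-likelihood test passed 0 of 15498 genes at an adjusted p of 0.05 (0%). Without adjustment, p was under 0.05 and pup exposure higher in 6.31% of these genes, and pup exposure lower in 4.67%. DESeq2 called 0.406% of genes higher after adjustment, edgeR with no low-count filter 0.255%, and limma-voom 0.00645%. These shares are the background for the gene lists that follow, and no call is given for the 8 receptors, whose values led to their choice.

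The receptor just outside the numbering, Vmn2r73, was at 18.5, 33.8 and 30.5 CPM after pup exposure and at 26.3, 21.2 and 29.2 CPM after control exposure, with overlapping groups. Further along the chromosome lie Vmn2r74 to Vmn2r79. Of the 7 genes Vmn2r73 to Vmn2r79, 6 were tested, 0 passed over all genes, the log2 fold change was above 0 in 5 and below 0 in 1, and the median was 0.14. The smallest p among them belonged to Vmn2r77 (log2 fold change 0.74, SE 0.52, edgeR adjusted p = 0.595), Vmn2r79 (0.44, SE 0.43, adjusted p = 0.700) and Vmn2r78 (-0.19, SE 0.42, adjusted p = 0.883). Vmn2r76 and Vmn2r77, the closest relatives of Vmn2r65 by coding sequence, had groups that overlapped. Vmn2r77 was at 10.402, 11.9 and 9.05 CPM after pup exposure and at 3.37, 10.58 and 4.84 CPM after control exposure.

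Over the 6 libraries, the receptors whose log2(CPM + 1) followed Vmn2r65 most closely, among 194 tested receptors of the V1R, V2R and formyl peptide families, were Vmn1r184 (Pearson r = 0.95), Vmn2r96 (0.95), Vmn1r236 (0.94), Vmn2r124 (0.94) and the family C receptor Vmn2r5 (0.94). Vmn1r184 was at 43.6, 65.7 and 54.9 CPM after pup exposure and at 22.2, 27.4 and 32.7 CPM after control exposure. Vmn2r96 was at 3.22, 14.6 and 9.10 CPM after pup exposure and at 0.549, 2.87 and 2.34 CPM after control exposure. In both genes, as in Vmn2r65, control exposure replicate 1 was the lowest and pup exposure replicate 2 the highest library. Among 15497 genes of any kind the highest r belonged to Dip2a (0.99), St6gal1, a sialyltransferase (0.99), Scd1, a fatty acid desaturase (0.99), Dnajc5, a synaptic vesicle chaperone (0.99), and Gcc1, a Golgi protein (0.99). None of the 7 neighbours came near these values, with r from -0.34 for Vmn2r69 to 0.47 for Vmn2r68. These are descriptions over 6 libraries that share depth and group, and genes with a difference between groups come out high by construction.

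Other genes of vomeronasal neurons were taken from lists. Of the 7 family C receptors, 4 were above 0 and 3 below 0 in log2 fold change, with a median of 0.39, and 0 passed over all genes. The groups did not overlap in 4 of the 7, with 2 higher and 2 lower after pup exposure, beside 19.8% of all genes tested. These were Vmn2r7 (log2 fold change -1.69, SE 0.54, edgeR adjusted p = 0.405), Vmn2r5 (1.87, SE 0.63, adjusted p = 0.424), Vmn2r6 (-1.37, SE 0.51, adjusted p = 0.424), and Vmn2r3, at 27.1, 39.2 and 29.3 CPM after pup exposure and 17.6, 18.6 and 12.7 CPM after control exposure. Of 5 signalling genes matched to a row, 4 were positive and 1 negative, with a median of 0.58, and 0 passed. Groups did not overlap in 3 of the 5, with 2 higher and 1 lower after pup exposure, beside 19.8% of all genes tested. With Xntrpc (log2 fold change 1.36, SE 0.44, edgeR adjusted p = 0.405) added, 5 of 6 were positive and the median was 0.63. Groups then did not overlap in 4 of 6. Kcnn3, a calcium-activated potassium channel, was at 0.697, 2.23 and 7.52 CPM after pup exposure and at 26.02, 65.9 and 15.6 CPM after control exposure (log2 fold change -3.37, SE 0.80, edgeR adjusted p = 0.375). The calcium-activated chloride channels Ano2 (1.07, SE 0.36, adjusted p = 0.421) and Ano1 (0.68, SE 0.35, adjusted p = 0.486) had pup exposure libraries above all control exposure libraries. Gnao1 was at 107, 92.5 and 59.5 CPM after pup exposure and at 37.0, 70.7 and 66.3 CPM after control exposure, with overlapping groups.

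The next list held 4 genes chosen for neuron identity and wiring, and not all of them are particular to basal neurons. Of these 4, 3 were positive and 1 negative, with a median of 0.48, and 0 passed. The negative one was Tfap2e (log2 fold change -0.39, SE 0.44), beside Robo2 (0.82, SE 0.47) and Meis2 (0.14, SE 0.36). The smallest p belonged to Bcl11b, a transcription factor (log2 fold change 1.003, SE 0.45, edgeR adjusted p = 0.449). The last list held 12 genes of receptor trafficking and of the H2-Mv family, which are non-classical MHC genes of V2R neurons. Of these 12, 1 was positive and 11 negative, with a median of -0.84, and 0 passed. Groups did not overlap in 4 of the 12, all lower after pup exposure, beside 19.8% of all genes tested in either direction. H2-M10.4 (-1.44, SE 0.47, edgeR adjusted p = 0.418), H2-M1 (-1.18, SE 0.44, adjusted p = 0.424) and H2-M9 (-1.52, SE 0.65, adjusted p = 0.447) had the smallest p. These lists were described by their counts and medians beside the median of 0.030 over all genes. Over all 15498 genes tested, 7976 were positive and 7522 negative.

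Markers of some other cell types stood at other levels after pup than after control exposure. The 4 sustentacular markers summed to 1410 to 2155 CPM after pup exposure and 3626 to 4259 CPM after control exposure, and all 4 had the lower mean after pup exposure. The 3 red blood cell markers summed to 46.9 to 148 CPM after pup exposure and 196 to 546 CPM after control exposure, also with all 3 lower. Of 3 macrophage markers 2 were lower in the mean, with sums of 28.9 to 36.8 CPM after pup exposure and 55.5 to 62.2 CPM after control exposure, and of 3 immature neuron markers 2 were lower, with sums of 87.4 to 165 and 177 to 236 CPM after pup and control exposure. The sums overlapped between groups for nasal glands (4 markers, 1 higher in the mean after pup exposure, 118710 to 254704 and 147972 to 485535 CPM), olfactory epithelium neurons (3 markers, 2 higher, 10.8 to 13.3 and 6.90 to 17.2 CPM) and endothelium (3 markers, 3 higher, 6.38 to 8.90 and 3.61 to 8.44 CPM). No marker was at 0 in all 6 libraries. Cnga2, which defines olfactory epithelium neurons, was at 0 in control exposure replicates 2 and 3. Ermn, a sustentacular marker, was at 0 in pup exposure replicate 1 and control exposure replicates 1 and 2. Its means were 0.203 and 0.313 CPM after pup and control exposure. Cdh5 was at 0 in control exposure replicate 3, and Alas2 in pup exposure replicate 1. The part of these marker differences between groups in the values of Vmn2r65 was not tested. Measured per summed counts of Omp and Gnao1 in place of the library total, its log2 fold change was 3.04 (SE 0.62), and per summed counts of all V2R genes it was 2.62 (SE 0.57). Measured per counts of Xntrpc, a denominator added after the data were seen, it was 1.54 (SE 0.64), and the median of all genes was -1.23. Vmn2r65 had 26.6%, 27.0% and 34.8% as many counts as Xntrpc after pup exposure, against 3.85%, 18.3% and 8.19% after control exposure, and these groups did not overlap. On that scale 6 of the 7 neighbours had a negative log2 fold change, with Vmn2r66 at -1.24 and Vmn2r69 at -1.55.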

How the data were processed

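The authors deposited 1 table of whole-number read counts per Ensembl gene ID and library, not normalized, per the file headers and values. Reads were processed on GRCm38, according to the submitters' processing notes. For the aligner, the counting tool, strand, multi-mapping reads and the annotation, the setting is not given in the sources used here. Per the labels' protocols, lysates were precipitated with an antibody to phosphorylated S6, and libraries were made by SMARTer cDNA synthesis, shearing and a low-input kit.

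IDs were named from GENCODE M21 (36639 of 38561 matched). Genes were kept by filterByExpr (minimum count 10, minimum total 15), scaled by TMM and fitted with edgeR 4.0.16 (R 4.3.3) on intercept and group, with Benjamini-Hochberg adjustment at 0.05. Fold changes are pup over control exposure, and SEs come from the F statistic. The fitting steps were tested on simulated data. DESeq2 1.42.0 and limma 3.58.1 were alternatives. The closing section gives the other settings. Identity is over aligned bases of global alignments, and shared words of 50 bases were sought on either strand.

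The members and lists were chosen with earlier results of these data known. Named genes were the 8 members, the 5 receptors and 5 genes most like Vmn2r65 by Pearson r, and 3 genes per list by p. Alas2, Cdh5, Cnga2, Ermn, Meis2, Vmn2r3, Vmn2r76 and Xntrpc were named after their values were seen. No library was a duplicate: counts of replicates of the same group differed by more than sampling (chi-square over its degrees of freedom, 94.0 to 323).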

Additional observations from a re-analysis of the deposited data

How the results depend on the processing

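Vmn2r65 was chosen by the contrast of pup and control exposure, and its groups did not overlap. A positive sign with single libraries left out was therefore largely set beforehand. The log2 fold change of Vmn2r65 was positive under all 17 planned settings, from 2.44 to 3.52. Per Xntrpc counts, added after seeing the data, it was 1.54, where the median of all genes was -1.23 and 6 of the 7 neighbours were negative. The Vmn2r65 estimate was 2.84 with RLE and with upper quartile scaling, 3.19 in limma-voom and 2.87 with every library thinned to the lowest total. With library totals only it was 3.24, where the median of all genes was 0.31 against 0.030, and per summed V2R counts 2.62 with a median of -0.23. Of 119 planned estimates for the 7 neighbours, 16 had another sign than reported, spread over 5 genes, and their range was -0.53 to 1.86. The gain in the Vmn2r65 share of the 8-gene sum was 41.8 percentage points, 33.6 to 48.2 with single libraries left out, and 5.27 points as a share of all V2R counts, which is another denominator. The neighbours' ratio ran from 0.932 to 1.26 with single libraries left out, was 1.22 with library totals and 1.014 with RLE. Over all 6 libraries Vmn2r65 ranked 1 of 8 per kb under each of the 3 lengths, and over the control exposure libraries alone it ranked 2 under each. Over all genes edgeR passed 0 with every library left out in turn, 120 without a filter, DESeq2 127 and limma-voom 8. With the replicate number as a block, the log2 fold change of Vmn2r65 was 3.11 and 0 genes passed. The labels share only a number: deviations of same-numbered libraries correlated at -0.073, 0.18 and 0.12, and not every library correlated best with its own number. Thinning left Vmn2r67 at 1.60 and Vmn2r71 at 0.13.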
